A study of Mus musculus with 10 samples.

Results

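The claudins described here are the 9 claudin genes Cldn1, Cldn2, Cldn3, Cldn4, Cldn6, Cldn7, Cldn8, Cldn10 and Cldn23, chosen by name as the probe sets whose only gene symbol was one of these. All 9 were found, as 12 of the 3663 probe sets in the table. Cldn3 had 3 probe sets, Cldn1 had 2, and the other claudins had 1 each. RNA had been measured on Affymetrix arrays, 2 per population, in 5 populations sorted from mammary glands of virgin female FVB mice aged 6 to 8 weeks. No genetic change or treatment distinguished the mice, and the populations were defined by the surface proteins used to sort them. The luminal populations were CD24highCD49fmed, which the study calls colony-forming luminal progenitors, and CD24medCD49f-/low luminal cells. The basal populations were CD24medCD49fmed, which the study's text calls CD24low and myoepithelial, and the Thy-1+CD24medCD49fhigh and Thy-1-CD24medCD49fhigh fractions of the gate that holds the mammary repopulating units. Cells carrying CD45, CD31 or Ter119 had been stained for exclusion, and the study's methods list a CD140α antibody beside these. Nothing in the labels says whether the 2 arrays of a population came from separate animals.

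Claudins are membrane proteins with a pair of extracellular loops that join neighbouring epithelial cells at the tight junction. Which claudins a cell makes sets how leaky its junctions are and which ions pass between cells, since some members seal the junction and others form pores. In the mammary gland the luminal cells face the lumen and carry the tight junctions that close around milk, while basal cells lie beneath them against the basement membrane.

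The values are log2 intensities centred on the mean of each probe set over the 10 arrays, so they compare arrays for 1 gene and give no level. A claudin is in the table only if its highest and lowest arrays were 4-fold or more apart. Of 23 other names on a list of claudins, their splice forms and related genes, 0 were present. Of the luminal markers 12 of 15 were in the table, with a median between 0.75 and 1.60 in the 4 luminal arrays and between -1.86 and -0.0013 in the 6 basal arrays. All 12 of 12 basal myoepithelial markers were present, with medians of -2.91 to -1.33 in luminal arrays and 0.94 to 2.02 in basal arrays. None of 9 endothelial markers and 1 of 8 leukocyte markers were in the table, and that one, Lcp1, was called higher in luminal cells (1.76). Present and called lower in luminal cells were 6 of 9 fibroblast markers, 5 of 8 Schwann cell markers, and 1 adipocyte and 1 erythroid marker. So were 4 of 10 epidermal keratinocyte markers. Of all features 34.7% were called lower in luminal cells and 41.3% higher. The part of other cells in the claudin differences was not tested. Medians of the 8 epidermal keratinocyte markers present (of 10) were 1.85 in CD24medCD49fmed replicate 2 and 2.15 in Thy-1+CD24medCD49fhigh replicate 1, against -0.88 to -0.11 in the other arrays. In sorted bulk RNA, fewer cells of a type and less RNA per cell cannot be told apart.

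The sequences before the start sites are shown for the 4 claudins whose arrays moved together (Cldn3, Cldn4, Cldn6 and Cldn7) and for Cldn2, which followed the lineage instead. They are RefSeq sequence of build GRCm38.p6, written 5′ to 3′ on the strand of the gene. RefSeq promoters were matched for 7 of the 9 claudins, in 9 windows of 250 bases, with none for Cldn8 and Cldn23. Capitals mark CACCTG or its reverse complement CAGGTG, the core that the repressors Snai2 and Zeb2 are known to bind. Cldn3 (chr5:134985964-134986213, plus strand) and Cldn4 (chr5:134946935-134947184, minus strand) are neighbours on the same chromosome. The other windows lie at chr17:23679115-23679347 for Cldn6, chr11:69964529-69964778 for the first start of Cldn7 and chrX:139800558-139800807 for Cldn2, all on the plus strand. The window of Cldn6 stops where the annotated gene begins.
Cldn3: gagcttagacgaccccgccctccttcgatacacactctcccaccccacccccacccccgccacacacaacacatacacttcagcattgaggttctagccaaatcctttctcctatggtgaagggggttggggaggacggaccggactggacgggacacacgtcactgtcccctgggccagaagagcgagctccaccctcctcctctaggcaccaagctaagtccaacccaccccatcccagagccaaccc
Cldn4: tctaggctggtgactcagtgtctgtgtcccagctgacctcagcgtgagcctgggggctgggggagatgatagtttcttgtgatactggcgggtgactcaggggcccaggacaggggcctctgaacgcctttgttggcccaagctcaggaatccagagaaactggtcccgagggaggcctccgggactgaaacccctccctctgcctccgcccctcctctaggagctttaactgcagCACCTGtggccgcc
Cldn6: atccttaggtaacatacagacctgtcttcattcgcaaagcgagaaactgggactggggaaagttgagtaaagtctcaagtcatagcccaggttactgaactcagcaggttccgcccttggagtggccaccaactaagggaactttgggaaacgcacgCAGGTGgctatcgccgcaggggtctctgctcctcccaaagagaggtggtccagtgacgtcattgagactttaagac
Cldn7: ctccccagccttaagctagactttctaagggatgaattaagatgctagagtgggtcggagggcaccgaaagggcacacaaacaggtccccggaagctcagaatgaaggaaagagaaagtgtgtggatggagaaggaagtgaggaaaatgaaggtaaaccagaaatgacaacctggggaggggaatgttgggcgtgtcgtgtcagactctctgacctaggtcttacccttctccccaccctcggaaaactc
Cldn2: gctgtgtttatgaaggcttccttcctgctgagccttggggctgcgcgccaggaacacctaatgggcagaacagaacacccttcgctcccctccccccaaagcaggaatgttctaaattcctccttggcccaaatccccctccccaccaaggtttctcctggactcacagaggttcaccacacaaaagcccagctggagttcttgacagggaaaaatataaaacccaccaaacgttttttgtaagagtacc
A second start of Cldn7 lies inside the gene, and the pieces around its matches are at chr11:69965312-69965341 and chr11:69965352-69965381.
Cldn7 second start, upper match: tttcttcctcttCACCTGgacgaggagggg
Cldn7 second start, lower match: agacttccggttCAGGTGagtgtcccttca
The match began 14 bases before the start of Cldn4, 76 before the annotated gene of Cldn6, and 97 and 57 before the second start of Cldn7. In all, 3 of the 9 claudin windows held it, against 17.2% of 32851 RefSeq promoter windows of 250 bases. The letters GGGCGG or CCGCCC were in 6 of 9 claudin windows and 32.7% of all windows. TATAAA or TTTATA was in 1 of 9, that of Cldn2, and in 12.4% of all windows. AACCNGTT or AACNGGTT, the core that the grainyhead-like factors bind, was in 0 of 9 claudin windows and 1.79% of all. These are matches of letters and were not measured as binding sites.

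Every one of the 9 claudins averaged higher in luminal than in basal cells, and 6 passed the test for that difference. Cldn8 differed most, by 12.4-fold, followed by Cldn10 and Cldn23. Cldn1, Cldn2 and Cldn3 differed by 2.22-fold to 2.91-fold, and the differences of Cldn4, Cldn6 and Cldn7 did not pass. A gene was called at an adjusted p under 0.05 with limma over all 2932 tested features. By that rule 41.3% of all features were called higher in luminal cells, 34.7% lower and 76.0% in either direction. Rank products, the test of the study, called 2 of the 9 claudins (Cldn8 and Cldn10) and 15.2% of features. The median difference was 1.25 over the 9 claudins and 0.11 over all features.

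Cldn8, which in the kidney tightens junctions against cations and works with Cldn4, had values of 3.25 and 2.30 in CD24highCD49fmed cells and 2.15 and 1.03 in CD24medCD49f-/low cells. Its basal values were -2.21 and -1.43 in CD24medCD49fmed cells, -1.62 and -0.51 in Thy-1+CD24medCD49fhigh cells and -2.20 and -0.76 in Thy-1-CD24medCD49fhigh cells. All luminal arrays lay above all basal arrays, with the CD24highCD49fmed arrays on top. The luminal minus basal difference was 3.64 ± 0.39 on the log2 scale (SE, adjusted p = 2.18e-07, limma).

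Cldn10, whose splice forms make either cation or anion pores, had 1.45 and 1.64 in CD24highCD49fmed cells and 0.80 and 1.28 in CD24medCD49f-/low cells. Among basal arrays it had -1.31 and -0.11 in CD24medCD49fmed, -1.07 and -0.10 in Thy-1+CD24medCD49fhigh and -1.48 and -1.10 in Thy-1-CD24medCD49fhigh cells. The groups did not overlap, and the luminal arrays were close together while the basal arrays were spread. The mean was 1.29 ± 0.36 in luminal and -0.86 ± 0.61 in basal arrays (SD, n = 4 and 6), a difference of 2.15 ± 0.35 (SE, adjusted p = 3.25e-05, limma). Cldn10 had a single probe set, 1426147_s_at, so its splice forms cannot be told apart.

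Cldn23, a distant member of the family known from intestinal epithelium, had 1.80 and 0.98 in CD24highCD49fmed cells and 0.97 and 0.63 in CD24medCD49f-/low cells. In basal cells it had -1.002 and -0.74 in CD24medCD49fmed, -0.86 and -0.78 in Thy-1+CD24medCD49fhigh and -0.89 and -0.11 in Thy-1-CD24medCD49fhigh cells. Again no luminal array reached down to a basal one, and 5 of the 6 basal arrays lay close together below Thy-1-CD24medCD49fhigh replicate 2. The difference was 1.83 ± 0.33 (SE, adjusted p = 9.99e-05, limma).

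Cldn2, which forms a pore for cations and water, had 0.80 and 1.07 in CD24highCD49fmed cells and 0.48 and 0.65 in CD24medCD49f-/low cells. Basal arrays had -0.02 and -1.09 in CD24medCD49fmed, -0.87 and -0.53 in Thy-1+CD24medCD49fhigh and -0.16 and -0.32 in Thy-1-CD24medCD49fhigh cells. The luminal arrays formed the tightest set of any claudin and stayed above every basal array. The difference was 1.25 ± 0.33 (SE, adjusted p = 0.00262, limma). Cldn2, Cldn8, Cldn10 and Cldn23 were thus 4 of 9 claudins with every luminal array above every basal array, as were 23.8% of all features.

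**Figure D1:**
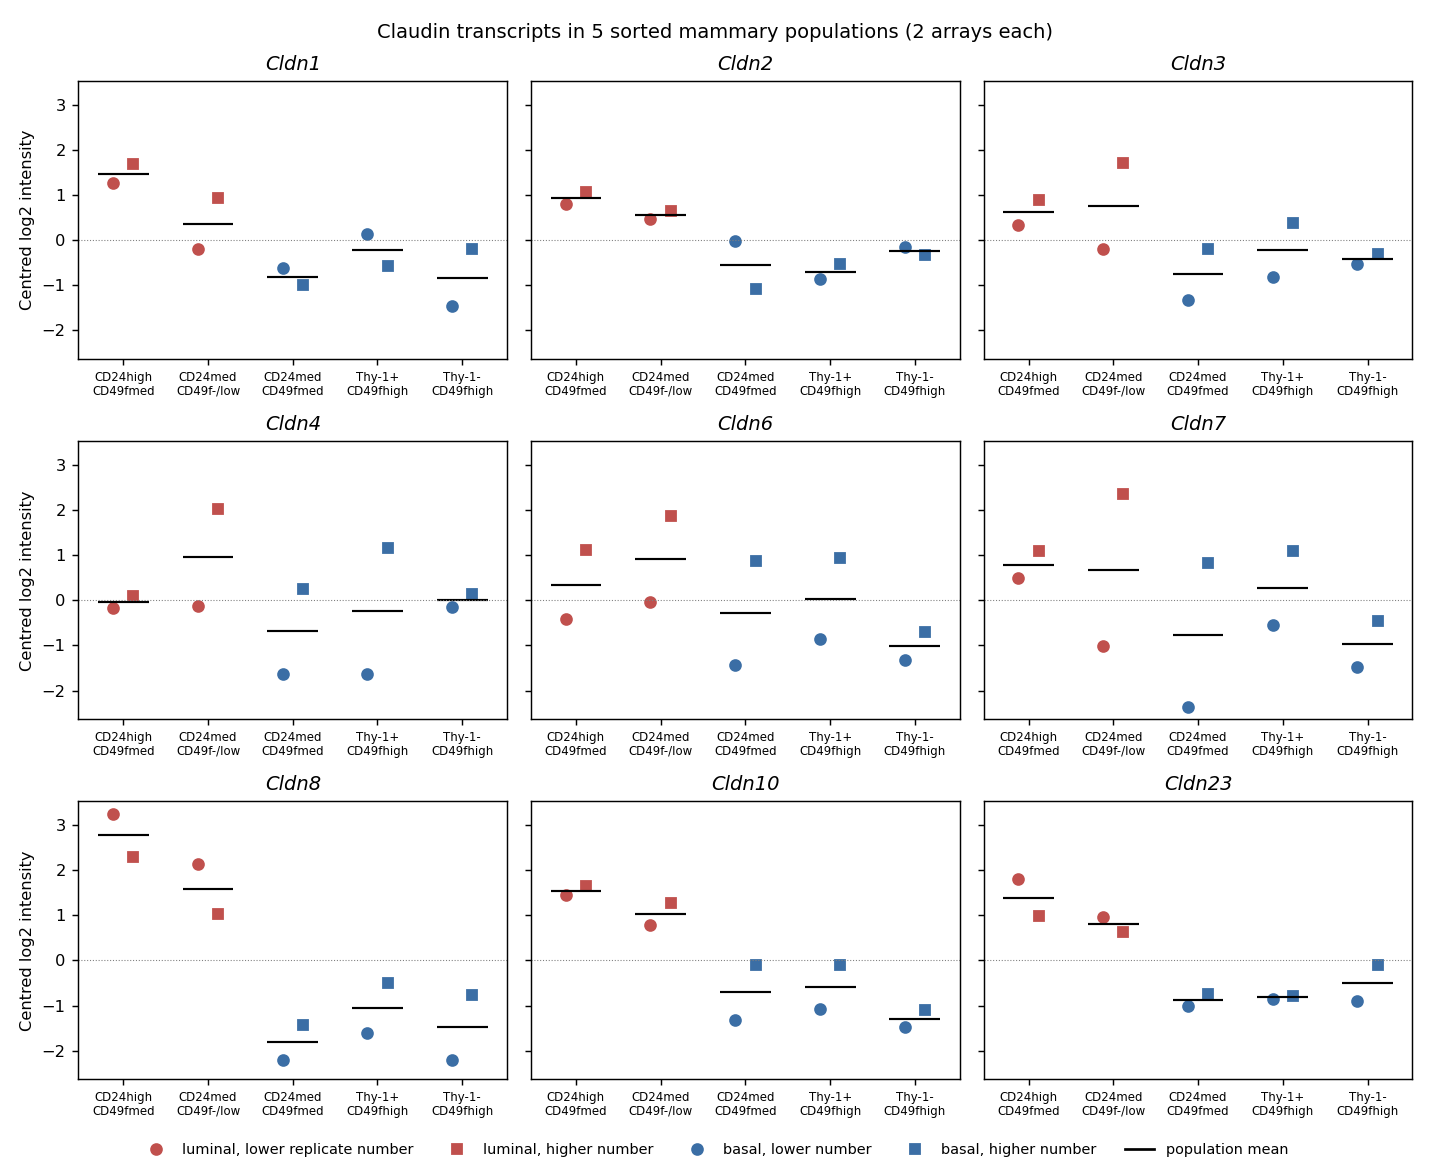
Centred log2 intensity of each claudin on the y axis in the 5 populations on the x axis, with 1 panel per gene, 2 arrays per population and a line at their mean (red, luminal; blue, basal; circle and square, lower and higher replicate number). Cldn2, Cldn8, Cldn10 and Cldn23 have every red point above every blue point, while in Cldn3, Cldn4, Cldn6 and Cldn7 the square lies above the circle in all 5 populations.

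Cldn1, a sealing claudin needed for the water barrier of mouse epidermis, had 1.27 and 1.68 in CD24highCD49fmed cells and -0.20 and 0.94 in CD24medCD49f-/low cells. In basal cells the values were -0.61 and -0.998 in CD24medCD49fmed, 0.14 and -0.56 in Thy-1+CD24medCD49fhigh and -1.47 and -0.19 in Thy-1-CD24medCD49fhigh cells. The CD24highCD49fmed arrays stood clear of all others, and CD24medCD49f-/low replicate 1 fell among the basal arrays. The difference was 1.54 ± 0.36 (SE, adjusted p = 0.00108, limma). The 2 probe sets did not give the same size. Probe set 1437932_a_at differed by 2.40 ± 0.37 (SE, adjusted p = 1.29e-05, limma on probe sets) and 1450014_at by 0.68 ± 0.38 (SE, adjusted p = 0.103), so the call of Cldn1 came from the first. Tested alone, 40.0% of all probe sets were called higher.

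Cldn3, a sealing claudin of many simple epithelia, had 0.34 and 0.89 in CD24highCD49fmed cells and -0.20 and 1.72 in CD24medCD49f-/low cells. Its basal values were -1.33 and -0.19 in CD24medCD49fmed, -0.80 and 0.39 in Thy-1+CD24medCD49fhigh and -0.53 and -0.30 in Thy-1-CD24medCD49fhigh cells. The groups overlapped, since Thy-1+CD24medCD49fhigh replicate 2 was above CD24medCD49f-/low replicate 1 and CD24highCD49fmed replicate 1. The difference was 1.15 ± 0.40 (SE, adjusted p = 0.0146, limma). It was 0.67 without CD24medCD49f-/low replicate 2 and was then not called, nor was it called without CD24highCD49fmed replicate 2, Thy-1+CD24medCD49fhigh replicate 1 or Thy-1-CD24medCD49fhigh replicate 1. Its probe sets differed by 1.02, 0.85 and 1.58 (adjusted p = 0.0282, 0.0583 and 0.00171, limma on probe sets), and the last 2 are of a kind that may also bind other transcripts.

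Cldn4, which bars cations and is the receptor of a clostridial toxin, had -0.17 and 0.11 in CD24highCD49fmed cells and -0.12 and 2.03 in CD24medCD49f-/low cells. Values in basal cells were -1.63 and 0.25 in CD24medCD49fmed, -1.64 and 1.16 in Thy-1+CD24medCD49fhigh and -0.15 and 0.14 in Thy-1-CD24medCD49fhigh cells. The groups overlapped fully except for 1 high luminal and 2 low basal arrays. The difference of 0.77 ± 0.50 (SE) had a 95% interval of -0.27 to 1.82 (adjusted p = 0.161, limma), which holds both no difference and a 3-fold one.

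Cldn6, a claudin of embryonic epithelia, had -0.42 and 1.11 in CD24highCD49fmed cells and -0.04 and 1.86 in CD24medCD49f-/low cells. The basal arrays had -1.43 and 0.87 in CD24medCD49fmed, -0.85 and 0.93 in Thy-1+CD24medCD49fhigh and -1.33 and -0.69 in Thy-1-CD24medCD49fhigh cells. The higher array of CD24medCD49fmed and of Thy-1+CD24medCD49fhigh cells reached above the lower array of both luminal populations. The difference was 1.05 ± 0.49 (SE, adjusted p = 0.0578, limma).

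Cldn7, which binds Epcam and lies along the lateral membrane as well as in the junction, had 0.49 and 1.09 in CD24highCD49fmed cells and -1.01 and 2.35 in CD24medCD49f-/low cells. Its basal values were -2.36 and 0.82 in CD24medCD49fmed, -0.55 and 1.10 in Thy-1+CD24medCD49fhigh and -1.47 and -0.47 in Thy-1-CD24medCD49fhigh cells. The highest of all values and one of the 3 lowest came from the same luminal population, and the groups overlapped. The difference was 1.22 ± 0.59 (SE, adjusted p = 0.0634, limma), and it was 0.38 without CD24medCD49f-/low replicate 2 and 2.06 without CD24medCD49f-/low replicate 1. Cldn4, Cldn6 and Cldn7 were each called without CD24medCD49f-/low replicate 1 or without CD24medCD49fmed replicate 3, which made 9 of 9 claudins called, where 40.1% and 38.1% of features were called higher. Without Thy-1+CD24medCD49fhigh replicate 2 the difference of Cldn4 was 1.24, and without CD24highCD49fmed replicate 1 it was 0.84. For Cldn4, Cldn6 and Cldn7 these were the higher array of a basal and the lower array of a luminal population. So were CD24medCD49fmed replicate 3 and CD24medCD49f-/low replicate 1. Leaving out any of them was bound to raise the differences of these genes.

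Each luminal population was also set against the 3 basal ones, and Cldn2, Cldn8, Cldn10 and Cldn23 were higher in both. In CD24highCD49fmed cells 5 of 9 claudins were called, all higher, where 74.7% of features were called and 44.0% higher. They were Cldn8 (4.23 ± 0.50), Cldn10 (2.41 ± 0.45), Cldn23 (2.12 ± 0.42), Cldn1 (2.09 ± 0.46) and Cldn2 (1.43 ± 0.42, log2 difference and SE). Cldn3 (1.08 ± 0.51) was not called in the gene average (adjusted p = 0.0603, limma). Its probe set 1460569_x_at was (1.57 ± 0.51, adjusted p = 0.00911, limma on probe sets), as were 42.0% of all probe sets. Over all features the median difference was 0.41 and fell to 0.08 once the array medians were set to 0, and the claudin differences given here include that shift. Cldn2 was not called without CD24highCD49fmed replicate 2, and rank products called 1 claudin, Cldn8, and 9.31% of features.

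In CD24medCD49f-/low cells 4 of 9 claudins were called, all higher, where 45.8% of features were called and 18.3% higher. They were Cldn8 (3.04 ± 0.50), Cldn10 (1.90 ± 0.45), Cldn23 (1.53 ± 0.42) and Cldn2 (1.06 ± 0.42), with a median over all features of -0.17 that became -0.01 with array medians at 0. The split of all calls was 536 higher and 806 lower, and 752 and 711 after quantile normalisation. Cldn2 was close to the threshold (adjusted p = 0.0438, limma) and was not called without any single one of 8 arrays, nor with the compared arrays alone. Rank products called Cldn8 only, and 8.46% of features. Cldn1 (0.99 ± 0.46) was not called in the gene average but was in probe set 1437932_a_at (1.34 ± 0.47, adjusted p = 0.0223, limma on probe sets), as were 19.7% of all probe sets. Cldn3 (1.22 ± 0.51) was not called in the gene average either (adjusted p = 0.0545, limma). Its probe set 1460569_x_at was (1.59 ± 0.51, adjusted p = 0.0143, limma on probe sets). Without CD24medCD49f-/low replicate 1 there were 8 claudins called (and 15.0% of features higher), and 7 without CD24medCD49fmed replicate 3 (16.3%). These comparisons use the same basal arrays as the one of both luminal populations.

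**Figure D2:**
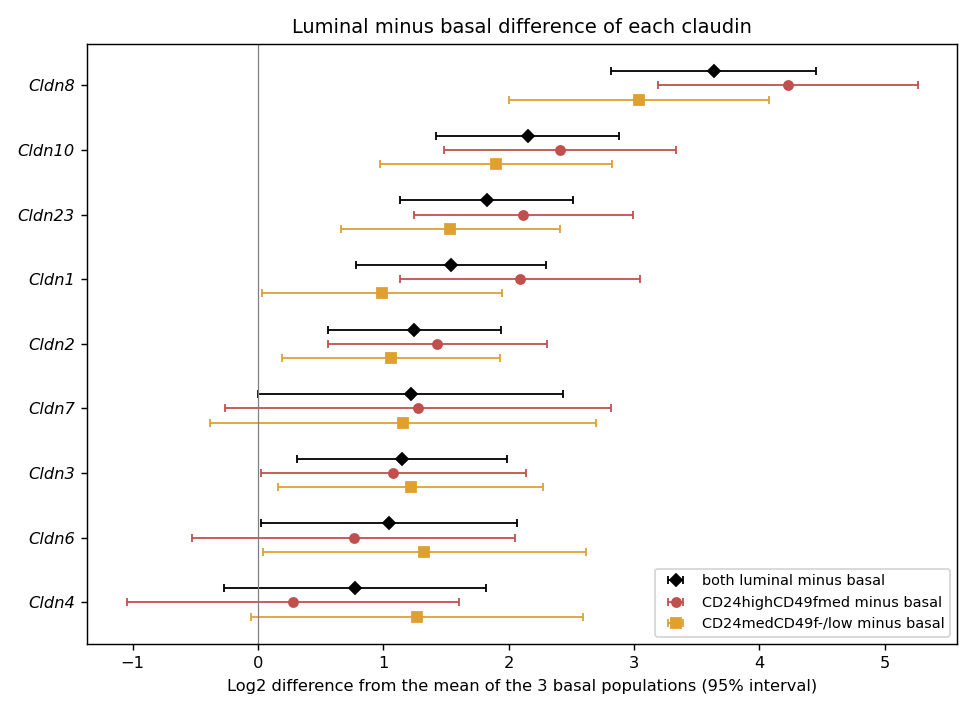
Log2 difference of each claudin from the mean of the 3 basal populations on the x axis with its 95% interval, for both luminal populations together (black), CD24highCD49fmed (red) and CD24medCD49f-/low (orange), with genes down the page by size. The intervals of Cldn1, Cldn2, Cldn3, Cldn8, Cldn10 and Cldn23 lie above 0 in all 3 comparisons, and those of Cldn4 reach below 0 in each. The intervals are not adjusted over features. After adjustment Cldn3 was not called in either luminal population alone, nor Cldn1 in CD24medCD49f-/low.

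Between the luminal populations no claudin was called, where 6 of 2932 features (0.205%) were. At an unadjusted p under 0.05 the counts were 0 of 9 claudins and 451 features (15.4%), and rank products called 0 claudins and 96 features (3.27%). Cldn8 differed by 1.19 ± 0.61 (CD24highCD49fmed minus CD24medCD49f-/low, SE, adjusted p = 0.351, limma), with a 95% interval of -0.08 to 2.46. Cldn1 differed by 1.10 ± 0.56 (adjusted p = 0.350), and by 2.11 ± 0.57 in probe set 1437932_a_at (adjusted p = 0.0799, limma on probe sets). Both CD24highCD49fmed arrays lay above both CD24medCD49f-/low arrays for 5 of 9 claudins (Cldn1, Cldn2, Cldn8, Cldn10 and Cldn23) and for 37.6% of features, where the median feature was 0.35 higher. For Cldn2, at 0.37, setting array medians to 0 gave -0.11.

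No claudin passed the test between the Thy-1 fractions either. For the Thy-1+ minus the Thy-1- fraction of CD24medCD49fhigh cells, 0 of 9 claudins and 2 features (0.0682%) were called. Thy1, the gene of the protein used to sort them, differed by 1.74 ± 0.61 (SE, adjusted p = 0.999, limma) and was not called. A missing call here therefore does not show equal levels. At an unadjusted p under 0.05 there were 0 claudins and 74 features (2.52%), and rank products called 0 claudins and 62 features (2.11%). Cldn7 had the largest difference, 1.25 ± 0.91 (SE, adjusted p = 0.999, limma), with a 95% interval of -0.64 to 3.13. CD24medCD49fmed minus both CD49fhigh populations gave 0 called claudins and 1 called feature (0.0341%), with 0 claudins and 52 features (1.77%) at an unadjusted p under 0.05. The largest claudin difference there was that of Cldn4, -0.57 ± 0.68 (SE, adjusted p = 1.0, limma), and rank products called 0 claudins and 65 features (2.22%).

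The claudins were split into 2 sets by their pattern over the arrays, after their values were seen, so the correlations are a description. Cldn1, Cldn2, Cldn8, Cldn10 and Cldn23 correlated with each other at Pearson r of 0.73 to 0.97 over the 10 arrays, and Cldn3, Cldn4, Cldn6 and Cldn7 at 0.80 to 0.92. Between the sets r ran from 0.19 (Cldn1 and Cldn4) to 0.80 (Cldn10 and Cldn3), so the sets are not sharply divided. The closest pair was Cldn8 and Cldn23 (r = 0.97). These values describe 10 arrays of 5 populations that share their normalisation.

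**Figure D3:**
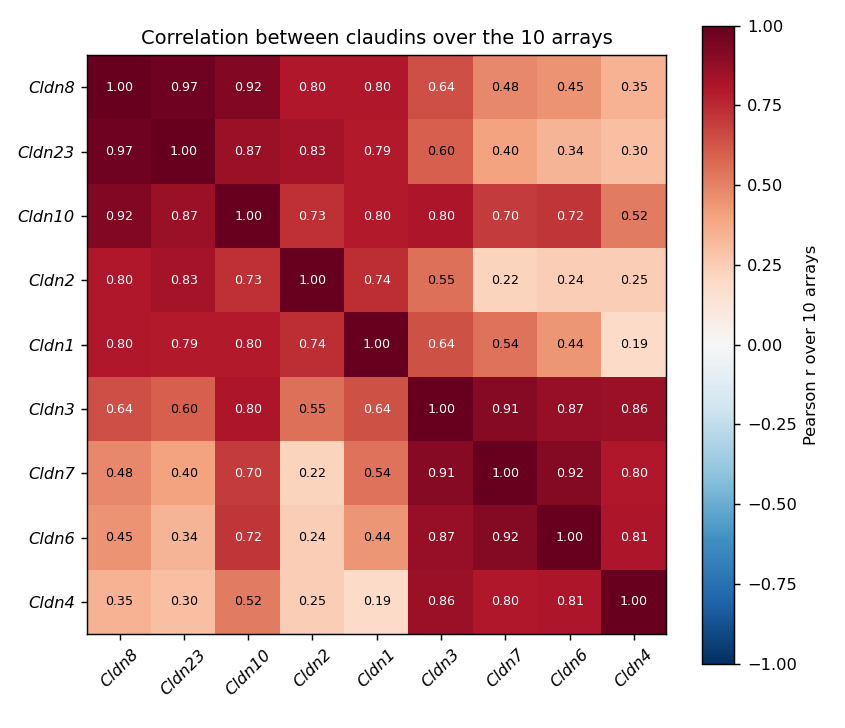
Pearson r between each pair of claudins over the 10 arrays, coloured from -1 (blue) to 1 (red), with the value printed in each cell. Cldn3, Cldn4, Cldn6 and Cldn7 form a block at the lower right with r of 0.80 to 0.92, and the other 5 claudins a block at the upper left.

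For Cldn3, Cldn4, Cldn6 and Cldn7 the 2 arrays of a population lay far apart. The mean absolute gap was 1.01 for Cldn3, 1.48 for Cldn4, 1.63 for Cldn6 and 1.96 for Cldn7 on the log2 scale, against a median of 0.59 over all features. A larger gap was found in 5.01%, 0.819%, 0.546% and 0.136% of features, in the same order of genes. For Cldn8 the mean gap was 1.08, on a lineage difference more than 3 times as large. In Cldn3, Cldn4, Cldn6, Cldn7 and also Cldn10 the higher array was the same one in every population (replicate 2, or replicate 3 of CD24medCD49fmed), as in 243 of 2932 features (8.29%). Replicate numbers tie nothing together across populations as far as the labels say.

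The keratin transcript Krt19, listed as a luminal marker, moved with this gap. Its own luminal minus basal difference was 0.63 ± 0.62 (SE, adjusted p = 0.344, limma) and was not called. Of the 12 luminal markers present, the other 11 were called higher in luminal cells. Krt19 had -0.33 and 1.08 in CD24highCD49fmed, -0.99 and 1.75 in CD24medCD49f-/low, -1.89 and 1.45 in CD24medCD49fmed, -0.86 and 1.56 in Thy-1+CD24medCD49fhigh and -1.75 and -0.04 in Thy-1-CD24medCD49fhigh cells, so the same array was higher each time. Krt19 correlated with Cldn7 at r = 0.94 and with Cldn6 at r = 0.93, and with Cldn8 at r = 0.31 and Cldn2 at r = 0.03. For Krt18 the r values of the sets overlapped. They were 0.89 for Cldn3, 0.75 for Cldn4, 0.85 for Cldn6 and 0.86 for Cldn7. In the other set they were 0.62 for Cldn1, 0.48 for Cldn2, 0.79 for Cldn8, 0.90 for Cldn10 and 0.71 for Cldn23. The median of the luminal markers was closer to Cldn8 (r = 0.91) and Cldn10 (0.92) than to Cldn7 (0.73), Cldn6 (0.69) or Cldn4 (0.66). The remaining claudins lay between, with Cldn3 at 0.89, Cldn23 at 0.88, Cldn1 at 0.79 and Cldn2 at 0.74, so this median did not separate the sets. The median of the luminal markers was also higher in CD24medCD49fmed replicate 3 (-0.78) than in replicate 2 (-1.86), and in Thy-1+CD24medCD49fhigh replicate 2 (-0.0013) than in replicate 1 (-0.94). CD24medCD49fmed replicate 3 and Thy-1+CD24medCD49fhigh replicate 2 also held the highest basal values of Cldn4, Cldn6 and Cldn7. Leaving them out, a choice made after seeing the data, was bound to raise the differences of these genes. No conclusion is drawn from it. The low arrays of these populations, CD24medCD49fmed replicate 2 and Thy-1+CD24medCD49fhigh replicate 1, were also those with the high epidermal keratinocyte markers, whose median correlated with Cldn4 at r = -0.74, Cldn3 at -0.64, Cldn7 at -0.46 and Cldn6 at -0.45, and with Cldn8 at -0.52. The part of luminal or keratinocyte RNA in these results was not tested.

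**Figure D4:**
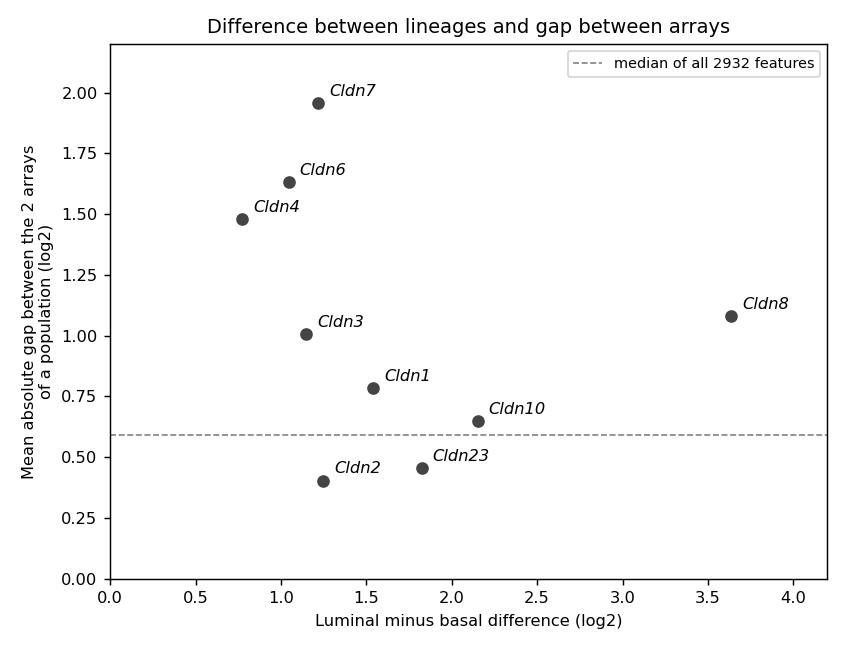
Luminal minus basal difference of each claudin (x axis, log2) against the mean absolute gap between the 2 arrays of a population (y axis, log2), 1 point per gene, with the median gap of all features dashed at 0.59. Cldn7, Cldn6 and Cldn4 have gaps of 1.48 to 1.96 beside differences of 0.77 to 1.22, and Cldn8 lies far to the right at 3.64.

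The genes nearest to each claudin over the 10 arrays, among 2559 named genes, were as follows. Cldn8 was nearest to Rab17 (r = 0.99), a small GTPase of epithelial membrane traffic, followed by D130037M23Rik and Chst1. Cldn10 was nearest to Mcur1 (r = 0.99), Bcl2l14 and Abcg1, Cldn23 to Sirt5 (r = 0.99), Gimap9 and Rb1, Cldn1 to Osgin2 (r = 0.98), Pnpla7 and Trim2, and Cldn2 to Phf20l1 (r = 0.94), Zkscan6 and Vsig10. Cldn3 was nearest to Fam174b (r = 0.99), the tight junction scaffold gene Tjp3 (r = 0.97) and Wnt4 (r = 0.97). Cldn6 was nearest to the keratin gene Krt7 (r = 0.98), Gfpt2 and Cited1, Cldn7 to Cited1 (r = 0.95), Vill and Mad2l2, and Cldn4 to Wfdc2 (r = 0.94), Hid1 and Vill.

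Among other membrane proteins of the tight junction and the scaffold beneath them, more genes were called higher than lower in luminal cells. Of 14 listed membrane proteins 8 were in the table, of which 5 were called higher and 2 lower, where 41.3% of all features were called higher and 34.7% lower. Their median was 1.70, against 0.11 over all features. Marveld2 (2.11 ± 0.38), the tricellulin gene, Marveld3 (2.09 ± 0.38), the polarity gene Crb3 (1.99 ± 0.35) and occludin, Ocln (1.95 ± 0.49, log2 difference and SE), had the largest differences. Jam2 (-0.97) and Clmp (-1.27), adhesion molecules of the immunoglobulin family, were lower, and Lsr (0.58, adjusted p = 0.163, limma) was not called. The gap of the claudins was seen in Ocln as well, at -1.10 and 1.99 in the 2 arrays of CD24medCD49f-/low cells. Cldn1, Cldn7 and Ocln also belong to population gene sets of the study for this strain, so their values are not independent evidence of those sets.

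Among scaffold and polarity proteins 8 of 30 were in the table, with 5 higher and 3 lower and a median of 1.04. Of all features 41.3% were called higher and 34.7% lower. The scaffold gene Magi3 (1.64 ± 0.34) and cingulin, Cgn (1.51 ± 0.34), rose in luminal cells, while Mpdz (-1.81 ± 0.32), a scaffold of many PDZ domains, and Pard6g (-2.28 ± 0.34) fell. Its relative Pard6b, of the same polarity complex, rose (1.22 ± 0.36). Of 30 adherens junction and desmosome genes 15 were in the table, with 5 higher and 7 lower and a median of -0.86, beside the same shares of all features. Pkp2 (2.74 ± 0.39), a desmosomal plaque gene, and Epcam (1.55 ± 0.33), whose product binds Cldn7, were among those higher, and N-cadherin, Cdh2 (-3.16 ± 0.34), Nectin3 (-2.98 ± 0.34) and Perp (-1.85 ± 0.32) among those lower.

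Of 24 listed regulators of epithelial junction genes 9 were in the table and all were called, 6 higher and 3 lower. Of all features 76.0% were called, 41.3% higher and 34.7% lower. Foxa1 (3.25 ± 0.56), a factor of hormone-sensing luminal cells, Ehf (2.66 ± 0.39) and Elf5 (2.42 ± 0.37) rose most, and Grhl1 (2.04 ± 0.34), Gata3 (1.45 ± 0.32) and Esrp2 (1.28 ± 0.33) also rose. The basal factor Trp63 (-3.20 ± 0.32) and the repressors Snai2 (-3.06 ± 0.33) and Zeb2 (-1.97 ± 0.34) fell. Snai2 values were -2.81, -2.42, -1.32 and -0.81 in the luminal arrays, against 0.80 to 1.52 in the 6 basal arrays, with no overlap. All luminal arrays lay below all basal arrays in 25.2% of features. In Foxa1 the basal gap was wide, at -3.43 and 0.45 in CD24medCD49fmed cells. No member of these 4 lists was called between the luminal populations, with Thy-1, or between the CD49f gates of basal cells.

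**Figure D5:**
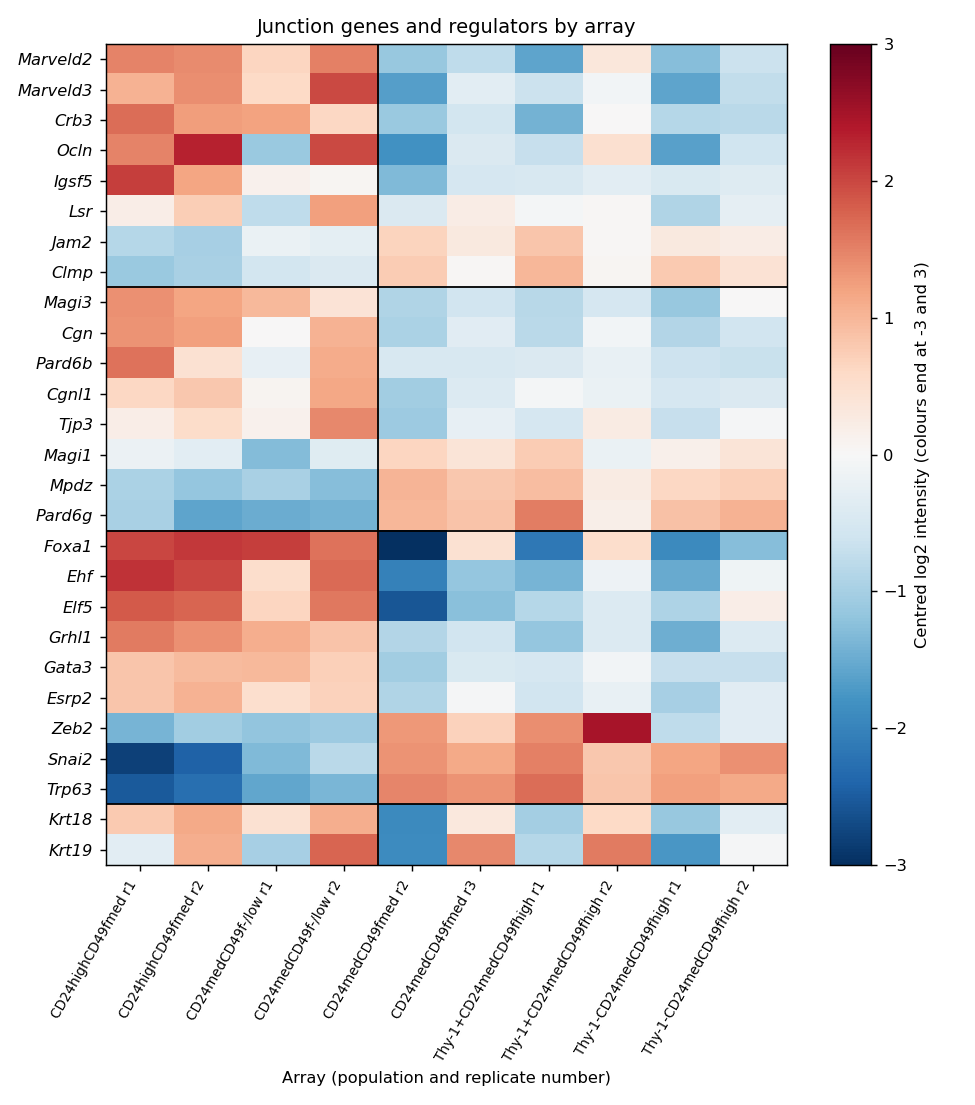
Centred log2 intensity (colour, ending at -3 and 3) of tight junction membrane genes, scaffold and polarity genes, regulators, and Krt18 and Krt19, in blocks down the page, in the 10 arrays across it with luminal arrays left of the vertical line and r marking the replicate number. Ocln, Foxa1 and Krt19 change colour between the 2 arrays of a population (Ocln -1.10 and 1.99 in CD24medCD49f-/low), while Snai2 and Trp63 keep one colour on each side of the line.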

How the data were processed

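RNA had been labelled in 2 cycles from the 3′ end and hybridised to Affymetrix mouse arrays, 10 in all. The deposited values are log2 intensities that the authors normalised across arrays, filtered and centred per probe set. The methods name RMA, the labels RMA and GCRMA, without versions. The authors kept probe sets above a minimum level and 4-fold or more apart between their highest and lowest arrays, so neither level nor signal over background can be read, and the number of arrays limits the precision.

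Probe sets were named through the platform annotation (3291 with 1 symbol, 75 with several, 297 with none). Values of a gene were averaged, which gave 2932 features. A single linear model fitted every array, with population means as terms (limma 3.58.1, R 4.3.3, lmFit and eBayes, 5 residual and 16.4 prior degrees of freedom), tested on simulated data first. Tests were two-sided and p-values were adjusted by Benjamini-Hochberg over all features. Since the origin of the replicates is not labelled, p-values reflect array-to-array spread, which may be technical. The 6 comparisons share arrays and are not independent.

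The members, gene lists and tests were chosen with earlier results of these data known. Named were all 9 claudins, called list members with the largest differences, the 3 genes nearest to each claudin by Pearson r, and markers that moved with a result. Lists were described by counts and medians. Alternatives were array medians at 0, quantile normalisation, robust moderation, a replicate block, a minimum difference, only the arrays compared, probe sets alone or the one with the largest range, a range filter, rank products (100 permutations, p under 0.01), each array left out, and, added after seeing the data, the 2 basal arrays with the highest Krt18 and Krt19 left out.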

Additional observations from a re-analysis of the deposited data

Results flagged for a closer look

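In Cldn4, CD24medCD49f-/low replicate 2 (2.03) lay far above the other 3 luminal arrays, with a gap of 0.874 of the range where 0.829 is the limit for 4 arrays. In Cldn23, Thy-1-CD24medCD49fhigh replicate 2 (-0.11) lay above the other 5 basal arrays, with a gap of 0.709 of the range where 0.625 is the limit for 6. In all 18 groups of arrays were looked at, 2 per claudin, and chance flags about 1 in 20.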

How the results depend on the processing

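The number of claudins called higher in luminal than in basal cells was 6 in 8 of the other settings. Only CD24medCD49fmed replicate 3 bears the number 3, so a replicate block fits that array exactly and in effect leaves it out. No count is given for the block, where the luminal minus basal difference of Cldn4 was 1.32, against 0.77 in the main fit. The setting without the 2 basal arrays of high Krt18 and Krt19 is not counted here. Those arrays held the highest basal values of Cldn4, Cldn6 and Cldn7, so these differences had to rise. Rank products called 2 (Cldn8 and Cldn10), 1 for CD24highCD49fmed and 1 for CD24medCD49f-/low against basal. For CD24medCD49fmed minus CD49fhigh the block leaves CD24medCD49fmed replicate 2 as the only array of its population. Its Cldn7 value was -2.36, against 0.82 in replicate 3, and no call is read from the block. Same-numbered arrays correlated over 0.1 in 2 of 10 pairs of populations (0.52 between the luminal ones and 0.30 between the Thy-1 fractions) and at -0.51 to 0.08 in the others, so the numbers were not taken to pair samples. Array medians at 0 gave 7 for CD24medCD49f-/low, with 735 features higher against 536. Leaving out a single array leaves 1 array in its population, so ranges of the luminal minus basal differences are given here. Cldn8 ran from 3.36 to 3.91, Cldn10 from 1.95 to 2.35 and Cldn23 from 1.62 to 2.03. Cldn1 ran from 1.25 to 1.82, Cldn2 from 1.07 to 1.425 and Cldn3 from 0.67 to 1.63. The widest were those of Cldn4 (0.24 to 1.31), Cldn6 (0.57 to 1.52) and Cldn7 (0.38 to 2.06), with Cldn3.

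No luminal minus basal difference changed sign under any setting run. Elsewhere signs turned only in differences that were not called. With array medians at 0 and with quantile normalisation, Cldn4 was -0.0497 and -0.0271 for CD24highCD49fmed minus basal, and Cldn2 was -0.11 and -0.17 and Cldn7 -0.36 and -0.49 for CD24highCD49fmed minus CD24medCD49f-/low. Without the 2 basal arrays, Cldn3 was -0.39 and Cldn8 -0.13 for Thy-1+ minus Thy-1-. For CD24medCD49fmed minus CD49fhigh, the replicate block and the loss of the 2 arrays gave 0.37 and 0.53 for Cldn2, -1.68 and -0.50 for Cldn6 and -0.63 and -0.13 for Cldn10. In the replicate block and without the 2 arrays, CD24medCD49fmed rests on replicate 2 alone. The cause of the sign changes was not tested.

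Single arrays left out also turned signs. For CD24highCD49fmed minus basal Cldn4 ran from -0.19 to 0.74 and Cldn6 from -0.0025 to 1.53, and for CD24medCD49f-/low minus basal Cldn7 ran from -0.52 to 2.84. For CD24highCD49fmed minus CD24medCD49f-/low the ranges were -1.10 to 0.81 (Cldn3), -2.06 to 0.084 (Cldn4), -1.52 to 0.39 (Cldn6) and -1.56 to 1.80 (Cldn7). For Thy-1+ minus Thy-1- they were -0.0233 to 1.25 (Cldn1), -0.39 to 0.81 (Cldn3), -1.64 to 1.16 (Cldn4), -0.30 to 1.14 (Cldn8) and -0.71 to 0.0754 (Cldn23). For CD24medCD49fmed minus CD49fhigh they were -0.60 to 0.0372 (Cldn1), -0.62 to 0.45 (Cldn2), -1.02 to 0.13 (Cldn3), -1.51 to 0.37 (Cldn4), -0.94 to 1.36 (Cldn6), -2.01 to 1.17 (Cldn7) and -0.38 to 0.83 (Cldn10).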
